A study of Mus musculus with 9 samples.

Results

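Immediate early genes are transcribed within minutes of a stimulus, from machinery the cell already holds. The 10 genes described here, Fos, Fosb, Jun, Junb, Egr1, Ier2, Atf3, Nr4a1, Btg2 and Dusp1, were chosen by symbol as genes known to respond to cell dissociation and to activity, and all 10 were among the 18329 genes of the deposited expression table. RNA had been sequenced from neuroglial progenitors of the third ventricular zone of postnatal day 1 mice on a C57/BL6 background, without treatment. All mice were Nestin-CFPnuc animals, whose cells make cyan fluorescent protein (CFP) in the nucleus where the Nestin promoter is active. Fluorescence-activated cell sorting by CFP and by CD133 (the product of Prom1, on the cell surface) gave 3 populations, named CD133+, Nestin+ and CD133+Nestin+, with 3 libraries each. Each library also carries a sort number from 1 to 3, and each sort number holds 1 library of each population. The labelled passage number equals the sort number in every library, so sort and passage cannot be told apart. The labels do not say whether single-marker cells were negative for the other marker, nor which animals went into a library.

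The products of these genes fall into a few groups. Fos, Fosb, Jun and Junb encode subunits of AP-1, a leucine zipper transcription factor formed by FOS and JUN proteins, and ATF3 is a related zipper protein induced by stress. Egr1 and Nr4a1 encode a zinc finger factor and an orphan nuclear receptor, Ier2 a small nuclear protein, Btg2 an antiproliferative cofactor of mRNA deadenylation, and Dusp1 a phosphatase that switches off MAP kinases. ERK and other MAP kinases, acting through SRF with its ternary complex partners, and cAMP or calcium, acting through CREB, are the textbook routes to their promoters. In the brain the genes are used as markers of recent neuronal activity, and enzymatic dissociation and sorting of tissue are also known to induce them.

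The proximal promoters of these genes are shown first, and their part in the differences between sorts was not tested. RefSeq promoter windows (250 bases before to 50 after the start, GRCm38.p6) were matched for 8 of the 10 genes. Only the start listed was scanned for each gene, and the counts of sites apply to that start. The windows of Atf3, Nr4a1 and Dusp1 lie far inside the annotated gene spans given below. The 250 bases upstream of the start follow, 5′ to 3′ on the strand of the gene, for Fos, the most abundant of the 10 genes per length, for Fosb, Nr4a1 and Dusp1, with the largest differences between sorts, for Btg2, which holds the same full element as Dusp1, and for Atf3, whose pattern differed. Capitals mark TGACG, the core of the cAMP response element bound by CREB and ATF proteins, or its reverse complement.
Fos (chr12:85473640-85473889, + strand): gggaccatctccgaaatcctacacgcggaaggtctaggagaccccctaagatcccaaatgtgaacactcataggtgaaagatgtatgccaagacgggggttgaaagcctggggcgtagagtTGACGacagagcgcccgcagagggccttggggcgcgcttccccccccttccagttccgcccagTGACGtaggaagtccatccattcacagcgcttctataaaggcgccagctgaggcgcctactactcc
Fosb (chr7:19310046-19310295, - strand): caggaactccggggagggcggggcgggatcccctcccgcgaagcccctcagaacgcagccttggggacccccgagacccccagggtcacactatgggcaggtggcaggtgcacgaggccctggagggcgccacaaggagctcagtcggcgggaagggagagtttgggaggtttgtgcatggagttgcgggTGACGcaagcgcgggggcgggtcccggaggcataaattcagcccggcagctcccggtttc
Atf3 (chr1:191183334-191183583, - strand): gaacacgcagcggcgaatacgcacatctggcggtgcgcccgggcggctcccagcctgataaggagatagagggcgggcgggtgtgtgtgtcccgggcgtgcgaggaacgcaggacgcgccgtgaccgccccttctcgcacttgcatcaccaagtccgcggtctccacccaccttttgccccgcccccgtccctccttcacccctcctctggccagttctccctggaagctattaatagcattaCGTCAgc
Nr4a1 (chr15:101266596-101266845, + strand): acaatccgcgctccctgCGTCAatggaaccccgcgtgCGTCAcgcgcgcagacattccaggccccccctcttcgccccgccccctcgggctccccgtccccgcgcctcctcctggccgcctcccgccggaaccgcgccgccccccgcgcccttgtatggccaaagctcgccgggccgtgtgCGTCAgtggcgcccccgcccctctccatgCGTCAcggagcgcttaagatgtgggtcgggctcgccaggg
Btg2 (chr1:134079156-134079405, - strand): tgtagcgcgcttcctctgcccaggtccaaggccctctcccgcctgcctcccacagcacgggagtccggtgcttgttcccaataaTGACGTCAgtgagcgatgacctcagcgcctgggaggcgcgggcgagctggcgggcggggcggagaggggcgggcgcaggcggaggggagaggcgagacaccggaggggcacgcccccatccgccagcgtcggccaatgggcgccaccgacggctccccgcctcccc
Dusp1 (chr17:26508473-26508722, - strand): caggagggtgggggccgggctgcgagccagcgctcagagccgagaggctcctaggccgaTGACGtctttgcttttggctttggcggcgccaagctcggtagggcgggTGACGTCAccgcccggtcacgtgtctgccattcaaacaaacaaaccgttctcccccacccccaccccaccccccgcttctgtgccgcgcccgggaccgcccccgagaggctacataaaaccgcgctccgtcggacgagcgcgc
TGACG was found on either strand in 7 of the 8 windows (all but that of Jun), against 20.8% of 32851 promoter windows of the same length. The full palindromic element TGACGTCA, which contains TGACG on both strands, was present in Btg2 and Dusp1, against 1.79% of all windows. Nr4a1 held 4 copies of the core. No window of the 8 held the AP-1 site TGANTCA (7.81% of all windows), the EGR site GCGTGGGCG (0.612%) or a CArG box, the SRF site (1.63%). TATAAA was present in those of Fos and Junb (13.6% of all). It lay at -33 to -28 from the start in Fos, and at 1 to 6, after the start used, in Junb. These are matches of letters in a short window, searched on both strands, and say nothing of sites outside it.

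All 9 libraries carry the same sequencing run and lane in their labels. Levels are in CPM (reads scaled to a common total, as inferred from the values), of which 1 read made up 0.0286 to 0.0344 across libraries. Prom1 stood at 146 to 182 CPM in CD133+ and 39.3 to 58.1 in Nestin+ libraries, and Nes at 39.5 to 57.3 and 157 to 195, so both sort markers follow the labels. The listed genes made up 87.3% to 87.6% of the CPM total in sort 1, 65.9% to 77.7% in sort 2 and 77.6% to 81.0% in sort 3, and mitochondrial genes 1.64% to 2.29%, 1.23% to 2.81% and 1.15% to 1.79%. CD133+Nestin+ replicate 2 stood apart on the second principal component, at -108 where the others lay between -19.3 and 57.1. Rescaled to the listed genes, or without that library, the count of immediate early genes called higher in sort 3 than in sort 1 was 9 and 10 of 10, and 9 with all libraries as deposited. The part of the mitochondrial share was not tested. Differences are log2 changes ± SE of CPM + 1, a scale that understates changes of low genes, and limma's p-values were adjusted by the Benjamini-Hochberg method across 16143 genes. No label ties libraries to separate animals or cultures, and the p-values therefore measure only how these samples vary, which may be technical variation.

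Most of the immediate early genes differed by sort number. Over the 3 sorts, with population as a term, 9 of the 10 passed limma's F test, all but Atf3, where 8.77% of all genes tested did. The adjusted p ran from 0.00387 for Fosb to 0.0286 for Btg2 and was 0.148 for Atf3. Without 1 library the count by the F test was 0 (Nestin+ replicate 1), 3 (CD133+ replicate 3 or CD133+Nestin+ replicate 1) or 6 to 9. The share of all genes that passed in those fits is not given here. In mean CPM sort 1 was the lowest of the 3 sorts and sort 3 the highest in each of the 10 genes. For Atf3 the mean of sort 2, 5.72 ± 9.45 CPM against 3.81 ± 2.66 in sort 1 (SD, n = 3), rests on CD133+ replicate 2 at 16.6 CPM, and on the log2 scale sort 2 lay below sort 1. In 8 of the 10 genes sort 3 held the highest library of each of the 3 populations, against 6.37% of all genes; in Junb and Egr1 Nestin+ replicate 2 lay above Nestin+ replicate 3. The plot of the genes by sort number shows the level in each library.

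**Figure D1:**
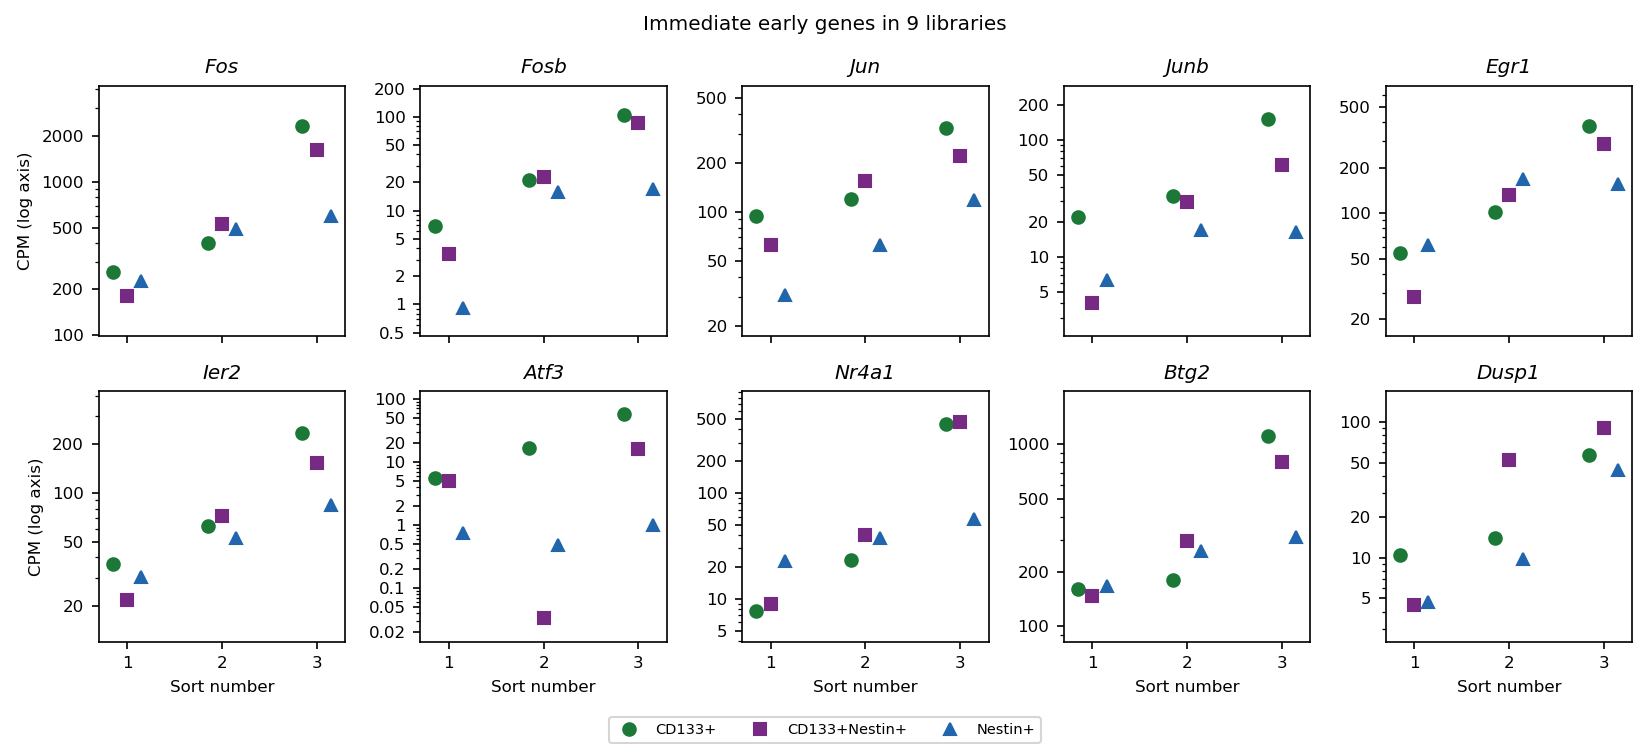
Level of each gene (CPM, log axis) in the 9 libraries by sort number, 1 point per library, with circles for CD133+, squares for CD133+Nestin+ and triangles for Nestin+. Fos spans 179 to 2311 CPM, with the libraries of sort 1 at 179 to 258 and those of sort 3 at 600 to 2311, whereas Atf3 separates the Nestin+ libraries (0.489 to 0.987) from the CD133+ libraries (5.65 to 56.4).

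Among the FOS subunits, Fos (chromosome 12, 85473890 to 85477273, GRCm38, plus strand) stood at 258, 400 and 2311 CPM in CD133+ libraries of sorts 1, 2 and 3, at 179, 530 and 1613 in CD133+Nestin+ and at 225, 496 and 600 in Nestin+. The 3 sorts did not overlap. By sort the mean was 221 ± 39.8, 475 ± 67.4 and 1508 ± 860 CPM (SD, n = 3), and sort 3 differed from sort 1 by 2.58 ± 0.38 (limma adjusted p = 0.0113). Fosb (chromosome 7, 19302696 to 19310051, minus strand) was far lower, at 6.85, 21.2 and 105 CPM in CD133+, 3.49, 23.0 and 85.1 in CD133+Nestin+ and 0.928, 15.9 and 17.1 in Nestin+ libraries of sorts 1, 2 and 3. Every library of sort 1 lay below every library of sorts 2 and 3, and sorts 2 and 3 overlapped through Nestin+ replicate 3. Fosb differed by 3.75 ± 0.39 between sorts 3 and 1 with the lowest adjusted p of the 10 genes (limma adjusted p = 0.00221), and by 2.35 ± 0.39 between sorts 2 and 1 (adjusted p = 0.0083).

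The JUN subunits Jun and Junb were both higher in sort 3 than in sort 1. Jun (chromosome 4, 95049034 to 95052222, minus strand) stood at 93.9, 119 and 328 CPM in CD133+, 62.5, 155 and 220 in CD133+Nestin+ and 31.1, 62.5 and 118 in Nestin+ libraries of sorts 1, 2 and 3. Sort 3 lay above sort 1 without overlap, by 1.83 ± 0.22 (limma adjusted p = 0.00452), and the Nestin+ library was the lowest of its sort in each of the 3 sorts. Junb (chromosome 8, 84974484 to 84978718, minus strand) stood at 21.9, 33.3 and 151 CPM in CD133+, 4.01, 29.6 and 61.3 in CD133+Nestin+ and 6.39, 16.9 and 16.3 in Nestin+ libraries. Its sorts overlapped, since the CD133+ library of sort 1 was above the Nestin+ libraries of sorts 2 and 3, and with population in the fit sort 3 was higher than sort 1 by 2.53 ± 0.46 (limma adjusted p = 0.0237). Both genes overlap another gene on the opposite strand (Junos, an antisense transcript, and Prdx2), and the sources used here do not give whether counting used strand.

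Atf3 (chromosome 1, 191170296 to 191218039, minus strand) was the exception. It stood at 5.65, 16.6 and 56.4 CPM in CD133+, 5.02, 0.033 and 15.8 in CD133+Nestin+ and 0.756, 0.489 and 0.987 in Nestin+ libraries of sorts 1, 2 and 3. The value in CD133+Nestin+ replicate 2 corresponds to about 1 read and lies under the level of 3 reads (0.0995 CPM), so no fold is given against it. Within CD133+ the library of sort 3 was 9.98 times that of sort 1, and within Nestin+ 1.31 times. Sorts 3 and 1 differed by 1.59 ± 0.71 (limma adjusted p = 0.255).

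Of the other transcription factors, Egr1 stood at 54.5, 103 and 378 CPM in CD133+, 28.2, 131 and 284 in CD133+Nestin+ and 61.9, 167 and 155 in Nestin+ libraries of sorts 1, 2 and 3. Sort 1 lay below both other sorts without overlap, and sort 3 was higher than sort 1 by 2.46 ± 0.37 (limma adjusted p = 0.0125). Nr4a1 (chromosome 15, 101254269 to 101274795, plus strand) stood at 7.76, 23.2 and 449 CPM in CD133+, 8.97, 40.4 and 468 in CD133+Nestin+ and 22.7, 37.7 and 56.6 in Nestin+ libraries. Its 3 sorts did not overlap, and it had the largest difference of the 10 genes between sorts 3 and 1, 4.17 ± 0.72 (limma adjusted p = 0.0196). In sort 1 the Nestin+ library held the most Nr4a1 of the 3 populations and in sort 3 the least.

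Ier2 (chromosome 8, 84661331 to 84662852, minus strand) stood at 36.5, 62.8 and 236 CPM in CD133+, 21.8, 71.9 and 154 in CD133+Nestin+ and 30.4, 52.4 and 84.7 in Nestin+ libraries of sorts 1, 2 and 3. The sorts did not overlap, and sort 3 was higher than sort 1 by 2.29 ± 0.29 (limma adjusted p = 0.00585). Btg2 (chromosome 1, 134075170 to 134079120, minus strand), which restrains proliferation of progenitors, stood at 161, 181 and 1107 CPM in CD133+, 146, 294 and 803 in CD133+Nestin+ and 166, 261 and 310 in Nestin+ libraries. Its libraries of sort 1 spanned only 146 to 166 CPM across populations, and sort 3 was higher than sort 1 by 2.04 ± 0.38 (limma adjusted p = 0.0265). Dusp1 (chromosome 17, 26505590 to 26562128, minus strand), the feedback phosphatase of the set, stood at 10.4, 14.0 and 57.0 CPM in CD133+, 4.47, 52.4 and 90.8 in CD133+Nestin+ and 4.71, 9.78 and 44.7 in Nestin+ libraries. Sort 3 lay above sort 1 without overlap, by 3.14 ± 0.46 (limma adjusted p = 0.0111), while sort 2 ranged across both. This annotated span of Dusp1 overlaps 4 annotated genes, among them Ergic1 on the opposite strand. The Dusp1 transcript used spans only 2.93 kb of it, and whether exons of the 4 genes overlap those of Dusp1 was not examined.

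Pairwise, sort 3 was higher than sort 1 in 9 of the 10 genes, against 2.69% of all genes called higher, and in the 10th, Atf3, the difference was positive. The median of the 10 changes was 2.49, and that of all genes 0.04. In 8 of the 10 genes (all but Junb and Atf3) the libraries of sort 3 lay above those of sort 1 without overlap, as in 16.3% of all genes. Between sorts 2 and 1, 5 of the 10 genes were higher, Fosb, Jun, Egr1, Ier2 and Dusp1, against 8.34% of all genes, with a median of 1.26 against -0.09. Fos at 1.11 ± 0.38 (limma adjusted p = 0.0707) and Junb at 1.49 ± 0.46 (adjusted p = 0.0529) did not pass, and Atf3 stood at -0.46 ± 0.71. Groups did not overlap for 6 of the 10 genes, against 12.4% of all genes.

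Sort 3 was not called different from sort 2 for any of the 10 genes, and 0% of all genes were called in that comparison with limma. The changes were positive for all 10, from 0.95 ± 0.22 for Jun to 2.76 ± 0.72 for Nr4a1, with a median of 1.42 against 0.13 for all genes. At an unadjusted p under 0.05 stood 10 of the 10 and 2215 of 16143 genes, and the lowest adjusted p among the 10 was 0.337. Fos, Ier2, Nr4a1 and Btg2 had no overlap between these sorts, against 8.08% of all genes.

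These counts depend on single libraries, and the fit leaves 4 residual degrees of freedom. Without CD133+ replicate 3, CD133+Nestin+ replicate 1, CD133+Nestin+ replicate 3 or Nestin+ replicate 1 the count for sort 3 against sort 1 was 3, 4, 5 and 3 of 10, with 0.55%, 0.442%, 0.737% and 0.205% of all genes called in either direction, where all 9 libraries gave 3.08%. Without the population term it was 2 of 10 (0.403% of all genes). Between sorts 2 and 1 the count of 5 was 0 without Nestin+ replicate 1, 1 without CD133+Nestin+ replicate 1 or Nestin+ replicate 2, 2 without CD133+Nestin+ replicate 2 and 3 without CD133+ replicate 1, and 4 to 7 in the other fits. For sorts 2 and 1 the share of all genes called in each fit is not given here, so these counts do not single out the 10 genes. Between sorts 3 and 1 the change stayed positive for each of the 10 genes in the 9 fits that left out 1 library.

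**Figure D2:**
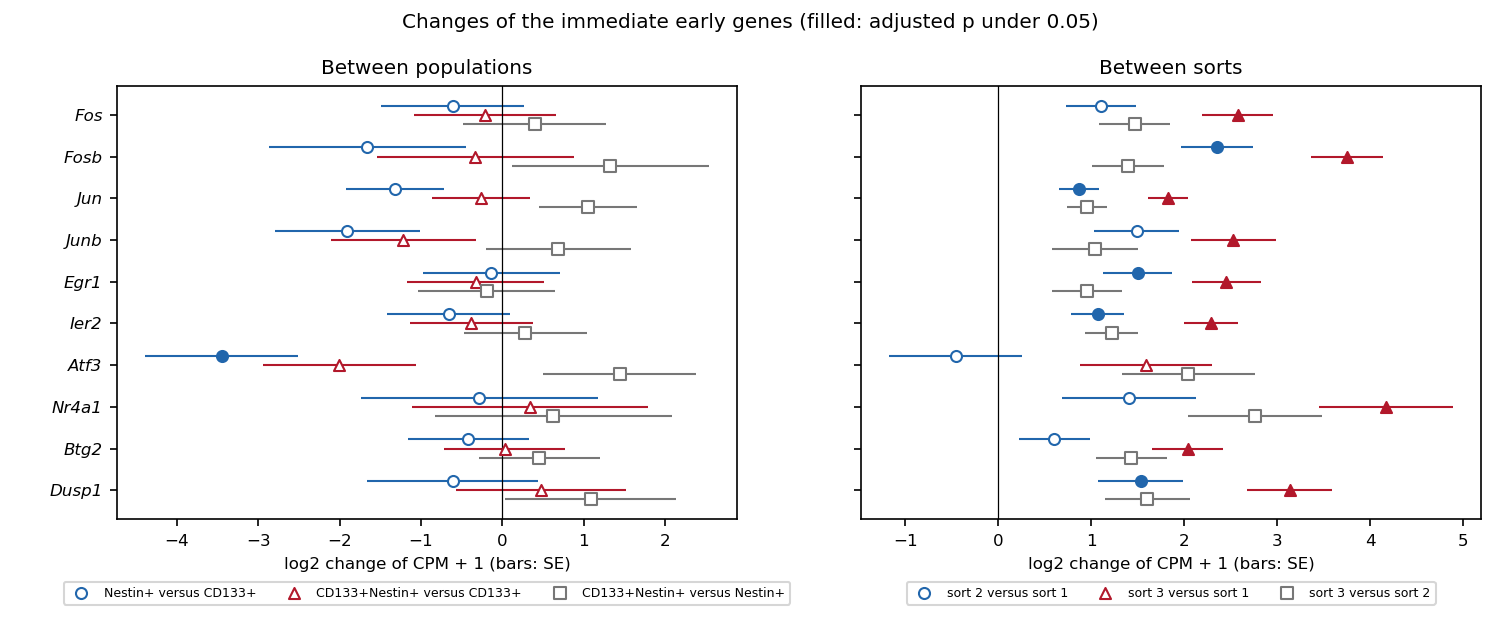
Log2 changes of CPM + 1 with SE bars for the 10 genes, between populations (left) and between sorts (right), filled where the adjusted p was under 0.05. Sort 3 against sort 1 is filled for 9 genes, at 1.83 to 4.17, whereas between populations Atf3 alone is filled, at -3.45 for Nestin+ against CD133+.

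Within each population the library of sort 3 was higher than that of sort 1 for 10 of the 10 genes. The median ratio of sort 3 to sort 1 was 6.92 in CD133+ (3.49 for Jun to 57.8 for Nr4a1) and 9.54 in CD133+Nestin+ (3.14 for Atf3 to 52.1 for Nr4a1). In Nestin+ it was 2.61 (1.31 for Atf3 to 18.4 for Fosb), where the median of all genes was 1.02 to 1.03 in each population. Nr4a1 gave the widest difference between populations, with ratios of 57.8 and 52.1 in CD133+ and CD133+Nestin+ and 2.49 in Nestin+. Jun gave nearly the same ratio in the 3 populations, 3.49, 3.52 and 3.79. From sort 2 to sort 3 the median ratio was 4.30 in CD133+ and 1.36 in Nestin+, where 8 of the 10 ratios were above 1. With 1 library for each population and sort, the difference between populations in these ratios could not be tested.

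Population accounted for little of the spread of most of these genes. Of the sum of squares of log2(CPM + 1) over the 9 libraries, sort number took a median of 77.9% and population 8.20% across the 10 genes, against 32.7% and 31.2% across all genes tested. Ier2 and Egr1 had the largest share by sort, 84.4% and 83.6%. Jun and Junb had 35.4% and 31.4% by population beside 60.8% and 54.6% by sort. Atf3 alone had more by population, 57.6%, than by sort, 22.2%.

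**Figure D3:**
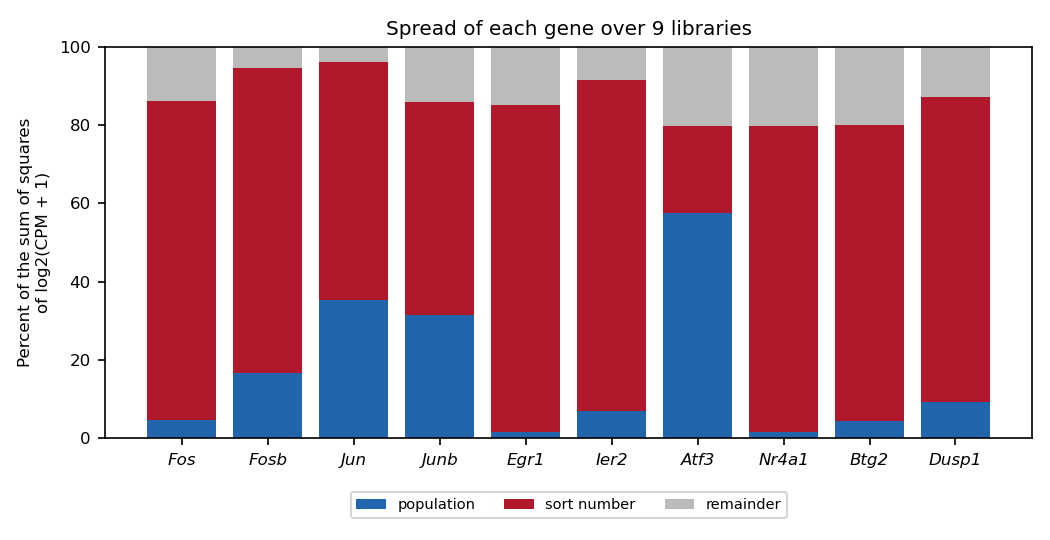
Share of each gene's sum of squares of log2(CPM + 1) over 9 libraries by population (blue), sort number (red) and remainder (grey), in percent. The red part ranges from 54.6% to 84.4% in 9 genes and is 22.2% in Atf3.

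Between populations Nestin+ was lower than CD133+ in 1 of the 10 genes, Atf3, where 9.42% of all genes were called lower. Atf3 averaged 0.744 ± 0.249 CPM in Nestin+ and 26.2 ± 26.7 in CD133+ libraries (SD, n = 3), a change of -3.45 ± 0.94 (limma adjusted p = 0.0355), with no overlap between the groups. That call was lost without CD133+ replicate 2 or 3 and without each of the 3 Nestin+ libraries, at an adjusted p of 0.0815 to 0.137. The other 9 changes were also negative, from -0.13 ± 0.84 for Egr1 to -1.91 ± 0.89 for Junb, and did not pass. The median of the 10 was -0.63, against -0.02 for all genes, and groups did not overlap for Junb and Atf3, against 21.1% of all genes with Nestin+ the lower. With sort number as a block in the limma fit, 4 of the 10 were lower (13.1% of all genes): Fosb at -1.66 ± 0.39 (adjusted p = 0.0146), Jun at -1.32 ± 0.22 (0.00259), Junb at -1.91 ± 0.46 (0.0175) and Atf3 (0.0083).

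CD133+Nestin+ differed from CD133+ in 0 of the 10 genes (2.42% of all genes were called in limma), and 0 had an unadjusted p under 0.05. The changes ran from -2.00 ± 0.94 for Atf3 to 0.48 ± 1.05 for Dusp1, with a median of -0.29 against -0.06 for all genes. With the sort block 0 of the 10 passed (1.12% of all genes were higher and 3.69% lower) and 2, Junb and Atf3, had an unadjusted p under 0.05. CD133+Nestin+ differed from Nestin+ likewise in 0 of the 10 (3.13% of all genes), with 0 at an unadjusted p under 0.05 and a median of 0.66 against -0.04. With the sort block Jun was higher by 1.06 ± 0.22 (limma adjusted p = 0.0199), 1 of the 10, against 4.97% of all genes called higher. The 3 comparisons share their libraries in pairs. In the authors' deposited table of population comparisons 0 of the 10 genes had a false discovery rate under 0.05 in any of the 3 comparisons, and the lowest was 0.189 for Atf3 between Nestin+ and CD133+.

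Among themselves the genes were close to each other across the 9 libraries, which share depth, scaling and sorts. The Pearson correlation of log2(CPM + 1) was highest for Fos with Ier2, at 0.985, and for Fos with Btg2, at 0.983. Jun with Egr1 was the least alike pair among the 9 genes other than Atf3, at 0.743, and Atf3 with Dusp1 the least alike of all, at 0.291. The mean z score of the 10 genes was -0.56, -0.03 and 1.58 in CD133+ libraries of sorts 1, 2 and 3, -1.08, 0.10 and 1.20 in CD133+Nestin+ and -1.05, -0.27 and 0.10 in Nestin+. The Nestin+ library of sort 3 therefore lay near the libraries of sort 2 of the other populations.

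Of 10060 genes outside the lists used here with a mean of at least 10 CPM, 6 had the pattern most like that mean score. They were Ndel1 (r = 0.968), a dynein regulator, Gga1 (0.936), a Golgi sorting adaptor, Dleu2 (0.896), a noncoding RNA, Adamts1 (0.891), a secreted protease, Tiparp (0.885), an ADP-ribosyltransferase, and Atp2c1 (0.874), a Golgi calcium pump. Ndel1 stood at 24.0, 32.8 and 45.5 CPM in CD133+, 21.4, 31.1 and 38.3 in CD133+Nestin+ and 22.2, 25.7 and 33.3 in Nestin+ libraries of sorts 1, 2 and 3, a span far narrower than that of Fos. Adamts1 was wider in CD133+, from 10.6 CPM in sort 1 to 82.4 in sort 3, and stayed at 12.0, 15.1 and 12.4 in Nestin+.

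Per kilobase of merged exons, averaged over the 9 libraries, Fos was the most abundant of the 10 genes, at 312 CPM per kb, followed by Btg2 at 139 and Ier2 at 54.8. Jun, Nr4a1 and Egr1 followed at 41.4, 35.3 and 33.8 CPM per kb, Junb at 16.5, and Dusp1, Atf3 and Fosb at 9.68, 5.25 and 4.96. Neighbours in this order overlapped in their ranges over the 9 libraries. Most of the genes are short: the median span of the transcript used was 3.67 kb with 3 exons, against 24.1 kb and 9 exons for 12955 coding genes tested. Spans ran from 1.52 kb for Ier2 to 47.7 kb for Atf3, and Nr4a1 spanned 20.5 kb with 8 exons. Jun, Junb and Ier2, 30.0% of the 10, have no intron, against 2.66% of those coding genes.

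Of 39 other early response genes tested, 12 were higher in sort 3 than in sort 1 (2.69% of all genes) and 0 lower, with a median change of 0.97. Cyr61, a secreted matrix protein gene and YAP target, differed by 3.18 ± 0.31 (limma adjusted p = 0.00187), Egr2, a paralogue of Egr1, by 4.06 ± 0.57 (0.00989), Zfp36, which destabilizes early mRNAs, by 1.92 ± 0.27 (0.0096), and Socs3, a cytokine signalling inhibitor, by 2.80 ± 0.42 (0.012). Of the same 39 genes 3 were higher in sort 2 than in sort 1 (Klf4, Cyr61 and Per1), against 8.34% of all genes, and these calls were lost in 3, 6 and 7 of the 9 fits without 1 library. The count of 12 fell to 1 without CD133+ replicate 3 or Nestin+ replicate 1 and to 4, 6, 6 and 7 without CD133+Nestin+ replicate 1, CD133+ replicate 1, Nestin+ replicate 3 and CD133+Nestin+ replicate 3, and was 21 without CD133+Nestin+ replicate 2.

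Of 10 further AP-1 and related zipper genes tested, 2 were higher in sort 3 than in sort 1, where 2.69% of all genes were. They were the small MAF factors Mafk at 1.93 ± 0.32 (limma adjusted p = 0.0174) and Mafg at 1.11 ± 0.24 (0.0409). Both were also higher in sort 2 than in sort 1, at 1.29 ± 0.32 and 0.98 ± 0.24, where 8.34% of all genes were. The count of 2 ranged from 0 to 4 with 1 library left out, and was 0 without CD133+ replicate 3, CD133+Nestin+ replicate 1, Nestin+ replicate 1 or Nestin+ replicate 3. Among 9 further genes of neuronal activity 1 was higher in sort 3 (2.69% of all genes), Arc, a regulator of synaptic strength, at 2.30 ± 0.35 (limma adjusted p = 0.0125). Of 23 kinases and factors upstream of the immediate early promoters 1 was higher in sort 3, near the 2.69% of all genes. It was Srf, itself a gene induced with them, at 2.16 ± 0.38 (limma adjusted p = 0.0213) and at 1.45 ± 0.38 in sort 2. Of 14 heat shock genes listed, a class also known to respond to tissue handling, 12 were measured. Of these 12, 0 were called between sorts 3 and 1, 2 had an unadjusted p under 0.05, and the median was -0.02. Those 2 moved in opposite directions, Dnajb1 at 0.53 ± 0.19 and Hsp90aa1 at -0.58 ± 0.24. Between sorts 2 and 1 the mitochondrial chaperonin gene Hspe1 was lower, at -1.28 ± 0.35 (limma adjusted p = 0.0339). Of the 9 fits without 1 library, the call between sorts 3 and 1 was lost in 7 for Mafg, in 4 each for Mafk and Srf and in 3 for Arc, and that of Hspe1 between sorts 2 and 1 in 4.

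**Figure D4:**
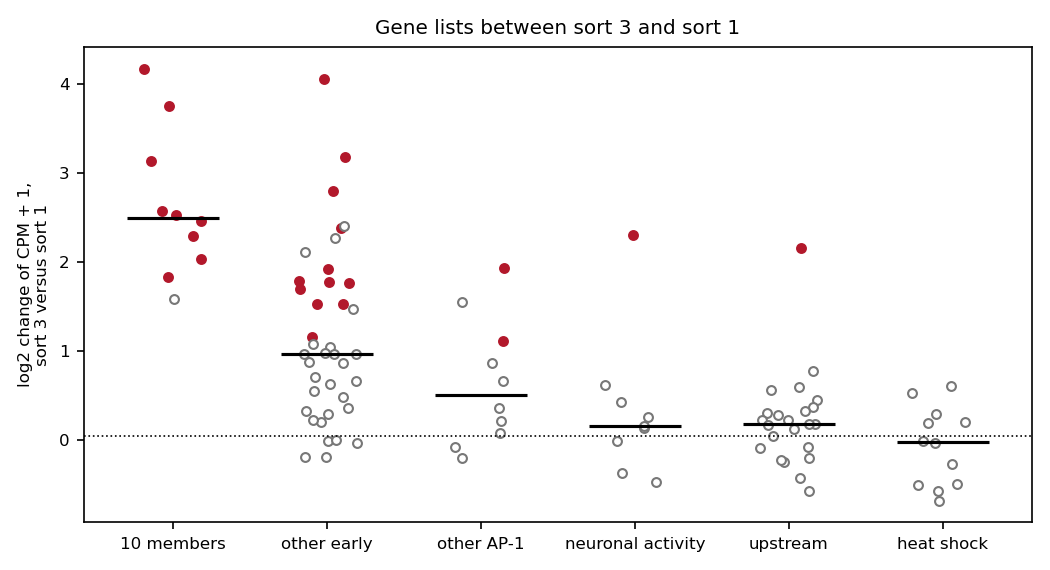
Log2 change of CPM + 1 between sorts 3 and 1 for each gene of 6 lists, filled red where called, with a bar at the list's median and a dotted line at the median of all genes (0.04). The 10 immediate early genes have their median at 2.49, the other early genes at 0.97 and the heat shock genes at -0.02.

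Between populations, 4 of the 39 other early genes were lower in Nestin+ than in CD133+, where 9.42% of all genes were. They were Ctgf at -2.61 ± 0.55, Klf2 at -2.15 ± 0.47, Zfp36 at -2.51 ± 0.65 and Ier3 at -2.80 ± 0.78. With the sort block 7 of the 39 were lower and 2 higher, and 3 of the 10 zipper genes were lower, against 13.1% of all genes called lower. The share of all genes called higher in that blocked fit is not given here. Without the block, of the upstream genes Elk3, a partner of SRF, was lower at -1.32 ± 0.25 and the kinase gene Rps6ka1 at -2.09 ± 0.55. Of the heat shock genes 3 of 12 were lower (9.42% of all genes), among them Hsp90aa1 at -2.29 ± 0.34. Batf3, at -1.45 ± 0.40, was the 1 further zipper gene that was lower, and Nptx2, a neuronal pentraxin, was higher at 1.76 ± 0.45. In CD133+Nestin+ against CD133+ cells Ier3 (-3.71 ± 0.78) and Elk3 (-1.16 ± 0.25) were lower, where 2.42% of all genes were called in either direction. In CD133+Nestin+ against Nestin+ cells Hsph1, a heat shock gene, was higher at 1.35 ± 0.31, where 3.13% of all genes were called in either direction. With the sort block 5 other early genes, 2 upstream genes and 1 heat shock gene were lower in CD133+Nestin+ than in CD133+ (3.69% of all genes). With that block, in CD133+Nestin+ against Nestin+ 1 other early gene was lower and 2 heat shock genes were higher (4.97% of all genes called higher, the share called lower not given here).

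Several of these calls rest on single libraries. Of the 9 fits without 1 library, the call for Nestin+ against CD133+ was lost in 6 each for Rps6ka1 and Nptx2, in 5 each for Batf3 and Ier3, in 4 for Zfp36 and in 1 each for Ctgf and Klf2, and in 0 for Elk3 and Hsp90aa1. Against CD133+ cells the CD133+Nestin+ call was lost in 8 fits for Elk3 and in 4 for Ier3, and that of Hsph1 against Nestin+ cells in 6. Each of these changes kept its direction in the 9 fits.

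Markers of several cell types differed between the same libraries. In bulk samples fewer cells of a type and less RNA per cell cannot be told apart. Between populations, the summed level of 5 measured endothelial markers was 377 to 761 CPM in CD133+, 28.1 to 43.4 in CD133+Nestin+ and 15.8 to 27.4 in Nestin+ libraries, and that of 12 microglial markers 1133 to 3544, 97.0 to 486 and 86.9 to 183. All 5 and all 12 were called lower in Nestin+ than in CD133+, alongside Atf3. Mural and fibroblast markers spanned 724 to 1453, 97.8 to 167 and 63.9 to 96.1 CPM, erythroid markers 783 to 1537, 60.6 to 118 and 24.4 to 344, and ependymal markers 1465 to 2898, 1187 to 1672 and 247 to 328 (5 of 6, 5 of 5 and 8 of 8 lower in Nestin+). Summed levels of markers of oligodendrocyte precursors, neurons and radial glia were higher in Nestin+, at 59.9 to 139, 29.5 to 97.4 and 2189 to 6432 CPM in CD133+ and 577 to 1067, 131 to 184 and 7575 to 13264 in Nestin+. Of these 5 of 6 precursor and 2 of 5 neuronal markers were called higher and 0 lower. Of all genes 9.42% were called lower in Nestin+ than in CD133+, and the share called higher is not given here. Of 9 radial glial markers 3 were higher (Nes, Hes5 and Rax) and 2 lower (Prom1 at -1.72 and Pax6 at -1.50), with Nes and Prom1 tied to the sort itself, and Vim stood at -0.12. Their part in the level of Atf3 was not tested.

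Between sorts, microglial markers were highest in sort 1, where the immediate early genes had their lowest means. Of the 12, 7 were lower in sort 3 than in sort 1 and 11 lower in sort 2. Of all genes 3.08% were called between sorts 3 and 1, and 2.69% higher. Between sorts 2 and 1, 8.34% of all genes were called higher, and the share called lower is not given here. From sort 2 to sort 3 the microglial sum rose in CD133+ (1133 to 1619 CPM) and Nestin+ (86.9 to 108) and fell in CD133+Nestin+ (116 to 97.0). The endothelial sum in CD133+ libraries was 377, 568 and 761 CPM in sorts 1, 2 and 3 and the mural sum 724, 851 and 1453, the same order as Fos, although 0 of the 5 and 0 of the 6 genes were called between sorts 3 and 1. Only in CD133+ did either sum rise in this order. In CD133+Nestin+ libraries the endothelial sum was 43.4, 28.1 and 42.7 CPM in sorts 1, 2 and 3 and the mural sum 100, 97.8 and 167. In Nestin+ libraries the mural sum was 63.9, 96.1 and 70.5 CPM and the endothelial sum 18.6, 15.8 and 27.4 in sorts 1, 2 and 3. There the defining endothelial genes stood at 1.03, 0.130 and 0.0618 CPM (Cldn5) and 0.412, 0.326 and 1.42 CPM (Pecam1), of which 0.0618 lies under the level of 3 reads (0.0926 CPM). Of the ependymal, oligodendrocyte precursor, neuronal, radial glial and erythroid markers 0 were called between sorts 3 and 1, and between sorts 2 and 1 1 precursor, 2 neuronal and 3 radial glial markers were lower. The part of cell composition in the differences between sorts was not tested further.

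**Figure D5:**
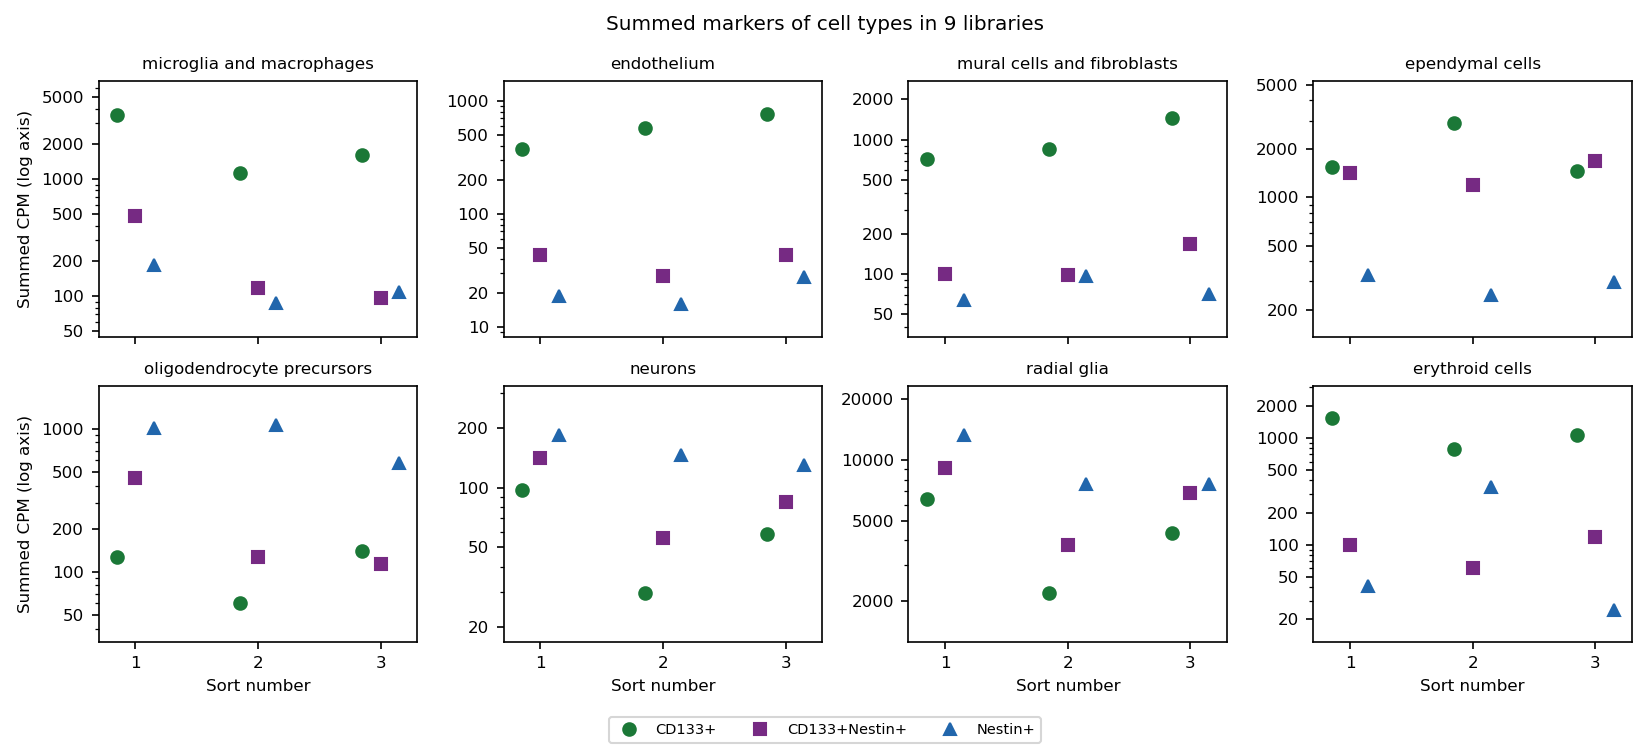
Summed CPM (log axis) of the markers of 8 cell types in the 9 libraries by sort number, with circles for CD133+, squares for CD133+Nestin+ and triangles for Nestin+. Microglial markers are highest in sort 1 in each population (3544 CPM in CD133+), and endothelial markers separate CD133+ (377 to 761) from the other libraries (15.8 to 43.4).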

How the data were processed

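Per the labels, total RNA of 9 libraries (3 populations, 3 sorts) was read on an Illumina HiSeq. The submitters' processing notes list mm10 as the build and, without roles, the tools bcl2fastq, limma, Partek 8.0 and STAR 2.5.3a. How reads were counted is not given in these sources. The deposited table of the authors held normalized values for 18329 genes, whose unit was inferred from the values as CPM with a small offset. Low values lay on steps of 1 read, but 43.4% to 57.8% of them were whole within 0.02 reads, so the reads could not be recovered as whole numbers and count models were not used. The authors' second table gave a p-value, a ratio of means and a false discovery rate for each population comparison, per the file headers. In CPM, 3 reads make 0.0857 to 0.103, a floor for counting error only. Rows with symbols turned into dates (24) were kept and not named.

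Values were taken as log2(CPM + 1), for the 16143 genes with 3 or more libraries at 1 CPM or above (2186 were left out), and fitted with limma 3.58.1 (R 4.3.3), using trended and robust variances. Populations were compared as 3 group means (6 residual degrees of freedom), sorts with population as a term (4). The threshold was an adjusted p of 0.05. The fits were tested on simulated data with noise drawn independently for each library. Deviations shared by same-numbered libraries were not simulated. Same-numbered libraries deviated together (r = 0.204 to 0.73 in 9 pairs, -0.527 to 0.314 in 18 others), so the numbers were taken, from the data, to pair the libraries, and a fit blocked on that number is reported where a call changes.

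The members, the gene lists and the tests were chosen with earlier results of these data known. All 10 members are named, from each other list up to 4 called genes of smallest p in a comparison, and the 6 genes outside the lists most like the members' mean z score. Klf4, Per1 and further genes of counts of 5 or fewer were named to complete those counts. Positions and exons are from GENCODE M21 on GRCm38, promoters from RefSeq. For some genes positions or sequences are not reported here. Alternatives were other pseudocounts, filters, scalings, library weights, priors, blocks and left-out libraries. Python 3.11.15 with matplotlib 3.10.9 drew the figures.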

Additional observations from a re-analysis of the deposited data

Results flagged for a closer look

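In 3 genes the populations moved in opposite directions between sorts. With 1 library for each population and sort, these differences were not tested. Atf3 was higher in sort 2 than in sort 1 by 10.98 CPM in CD133+, and differed by -4.99 CPM in CD133+Nestin+ and by -0.267 CPM in Nestin+. Junb was higher in sort 3 than in sort 2 by 118 CPM in CD133+ and 31.7 CPM in CD133+Nestin+, and differed by -0.569 CPM in Nestin+. Egr1 differed between the same sorts by 276 CPM in CD133+, 153 CPM in CD133+Nestin+ and -12.5 CPM in Nestin+.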

How the results depend on the processing

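Between sorts 3 and 1 the changes of the 10 genes kept their direction in every alternative in which they were tested. Leaving out 1 library gave 3 to 10 of the 10 genes called between sorts 3 and 1, 0 to 7 between sorts 2 and 1, 0 to 1 between sorts 3 and 2, 0 to 9 by the F test and 0 to 1 for Nestin+ against CD133+. For the 39 other early genes these fits gave 1 to 21 between sorts 3 and 1, 0 to 4 between sorts 2 and 1 and 1 to 21 by the F test. The sort fits lost most calls without a population term (members 2, 0 and 0 for sort 3 against 1, sort 2 against 1 and the F test, other early genes 2, 0 and 1). Leaving out all libraries of 1 population was chosen after seeing the data. The members gave 2, 1 and 0 without CD133+, and 2, 0 and 1 without Nestin+, and 1 between sorts 2 and 1 without CD133+Nestin+ libraries. The other early genes gave 1, 0 and 0 without CD133+, 2, 0 and 0 without Nestin+, and 1 between sorts 2 and 1 without CD133+Nestin+ libraries. These fits have fewer libraries. Without trend or robust prior 3 members and 1 other early gene were called between sorts 2 and 1. With library weights 28, 8, 2 and 27 other early genes were called (sort 3 against 1, 2 against 1, 3 against 2, F test), with quantile normalization 8 by the F test, and rescaled to the listed genes 6 between sorts 2 and 1. The share of all genes called also changed between fits, as given above for some of those of sort 3 against sort 1. It is not given here for each fit, so these counts do not single out the early genes.

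For Nestin+ against CD133+ the count of members was 1, and it was 0 with a pseudocount of 0.1, rescaled to the listed genes or with sorts 1 and 2 only, 3 with library weights, and 4 with the replicate block, also without CD133+Nestin+ replicate 2. For CD133+Nestin+ against Nestin+ the block gave 1, and 2 without that library. The block changed no call of CD133+Nestin+ against CD133+. The fits with some sorts only, and the block without that library, were chosen after seeing the data. Apart from the block with all libraries, the share of all genes called in these alternatives is not given here. The causes of these changes were not tested.

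Uncalled changes turned direction in some fits. With library weights Atf3 stood at 0.23 between sorts 2 and 1, and for CD133+Nestin+ against CD133+ Btg2 at -1.21, Dusp1 at -0.78 and Nr4a1 at -1.84. Without the CD133+Nestin+ libraries Atf3 stood at 0.58 between those sorts. With the replicate block, leaving out CD133+Nestin+ replicate 2, Btg2 stood at -0.066 and Dusp1 at -0.17 for CD133+Nestin+ against CD133+. With sorts 1 and 2 only, Btg2, Egr1, Fos and Nr4a1 stood at 0.28, 0.44, 0.056 and 1.06 for Nestin+ against CD133+, and Btg2, Fos, Ier2 and Nr4a1 at -0.0053, -0.12, -0.0076 and -0.58 for CD133+Nestin+ against Nestin+. With sorts 2 and 3 only, Egr1 stood at 0.26 for the latter, and with median centring at 0.00099 for Nestin+ against CD133+. For Nestin+ against CD133+ the changes that turned direction ranged, with 1 library left out, from -0.91 to 0.47 for Btg2, from -1.46 to 0.11 for Dusp1, from -0.75 to 0.64 for Egr1, from -1.24 to 0.34 for Fos, from -1.23 to 0.099 for Ier2, from -1.47 to 1.37 for Nr4a1. For CD133+Nestin+ against CD133+ the changes that turned direction ranged, with 1 library left out, from -0.62 to 0.93 for Btg2, from -0.33 to 1.70 for Dusp1, from -1.06 to 0.58 for Egr1, from -1.01 to 0.73 for Fos, from -1.35 to 0.78 for Fosb, from -1.02 to 0.38 for Ier2, from -0.64 to 0.28 for Jun, from -1.17 to 1.99 for Nr4a1. For CD133+Nestin+ against Nestin+ the changes that turned direction ranged, with 1 library left out, from -0.20 to 1.03 for Btg2, from -0.93 to 0.72 for Egr1, from -0.40 to 1.18 for Fos, from -0.36 to 1.02 for Ier2, from -0.088 to 1.73 for Junb, from -0.89 to 1.89 for Nr4a1. Atf3 between sorts 2 and 1 ranged from -1.30 to 0.56. Rescaling to the listed genes moved the median of all genes from -0.09 to 0.17 between sorts 2 and 1 and that of the members from 1.26 to 1.56. Median centring moved that of Nestin+ against CD133+ from -0.02 to 0.12 and the members' from -0.63 to -0.50. CPM under about 0.1 is under 3 reads, which limits Atf3 and no other member.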
